A study of Mus musculus with 10 samples.

Results

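The untreated arm of this series holds 5 arrays of the 10 deposited, each from a different primary B-cell lymphoma of Emu-myc mice that lack Suv39h1. The lymphomas are numbered lymphoma_5783, lymphoma_7890, lymphoma_9250, lymphoma_1032 and lymphoma_4936. Members were chosen by their title, which marks untreated cells; the other 5 arrays, of cells given Adriamycin, were not used. On the untreated arrays, the probe set with the highest mean stood for each gene, which gave 18193 genes. The levels, the even genes and the uneven genes described below come from these same 5 arrays, so that they are a description with no test.

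All 5 lymphomas share their engineered lesions. They carry the Emu-myc transgene, in which an immunoglobulin heavy-chain enhancer drives Myc in the B lineage, and the Suv39h1-/- genotype. The cells came from enlarged lymph nodes, were transduced with a retroviral Bcl2 and selected with puromycin, and grew on irradiated NIH 3T3 fibroblasts as a feeder layer, per the labels' protocols. No age or sex is given. There is 1 untreated array per lymphoma, so differences between tumours, between cultures and between arrays cannot be told apart, and every SD below, over n = 5 arrays, holds all of them.

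Myc is a transcription factor that raises ribosome production, growth and entry into the cell cycle. Its overexpression engages the Arf and p53 brake, which the loss of Cdkn2a or Trp53 releases in many Emu-myc tumours, and Bcl2 blocks the apoptosis that Myc provokes. Suv39h1 writes trimethylation of histone H3 at lysine 9, a silencing mark. Emu-myc lymphomas arise at the pre-B or B-cell stage, and each tumour acquires further lesions of its own.

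Signals are log2 values, so that a difference of 1 is 2-fold and one of 2 is 4-fold. Values are listed throughout in the order lymphoma_5783, lymphoma_7890, lymphoma_9250, lymphoma_1032 and lymphoma_4936. A signal depends on its probes as well as on its transcript, so the order of genes by signal is not an order of transcript abundance. The median of all probe sets on the 5 arrays was 4.47, and the array medians lay between 4.44 and 4.50. On the 3' and 5' control probe sets, the difference for actin ran from 0.32 in lymphoma_5783 to 0.68 in lymphoma_9250.

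Most genes were even between the lymphomas. The median SD was 0.29, and 95% of genes had an SD under 1.01. An SD of at least 1 was found for 925 genes. A range of at least 2, or 4-fold between the lowest and highest lymphoma, was found for 1421 genes, 7.81% of those measured, and this share is the background for every count of uneven members below. The median SD was 0.23 for genes with a mean up to 4, 0.39 between 6 and 8, and 0.14 above 12.

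Lymphoma_1032 and lymphoma_4936 stood farthest from the others and from each other. Between these 2 tumours 741 genes differed by at least 4-fold, against 218 between lymphoma_7890 and lymphoma_9250, the closest pair. Pearson's r across genes was 0.933 for the first pair and 0.977 for the second; it is a description over 18193 genes that share probes and processing. Of the 1421 genes with a range of at least 2, the highest signal was in lymphoma_1032 for 644 and in lymphoma_9250 for 87. Genes with 1 lymphoma apart, meaning a range of at least 2 and most of that range between 1 lymphoma and its nearest neighbour, numbered 202, or 1.11%. Of these, 73 were high and 17 low in lymphoma_1032, and 56 were high and 21 low in lymphoma_4936; lymphoma_9250 had 4 in all. Without lymphoma_1032 the genes with a range of at least 2 numbered 885 and the widest pair differed at 482 genes; without lymphoma_9250 the closest pair differed at 342. With 4 lymphomas and the stricter critical share for 4 values, the genes with 1 lymphoma apart numbered 127 without lymphoma_9250, 120 without lymphoma_1032 and 93 without lymphoma_4936.

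**Figure D1:**
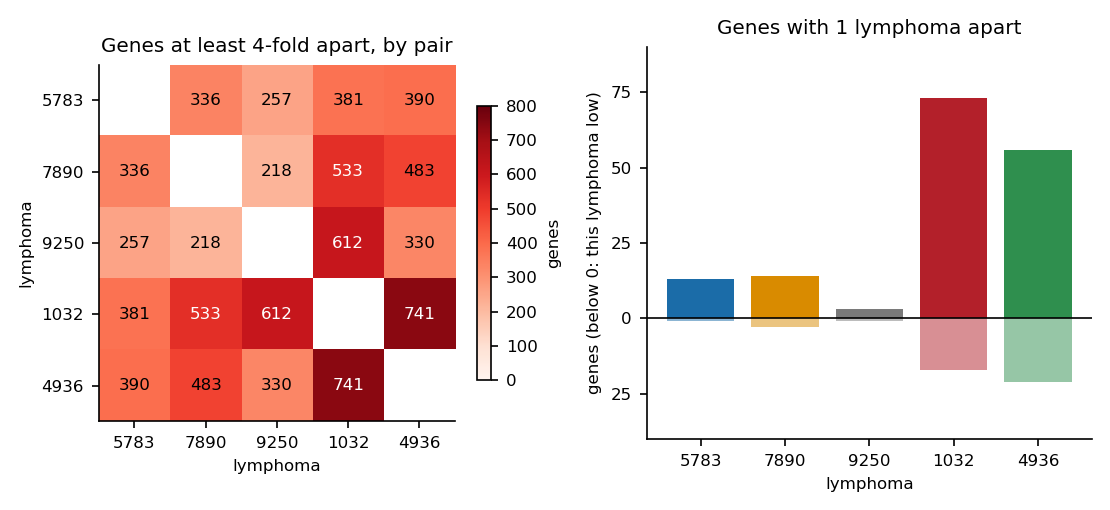
Left, number of genes at least 4-fold apart between each pair of untreated lymphomas (colour scale, genes). Right, number of genes with 1 lymphoma apart, above 0 where that lymphoma is high and below 0 (paler) where it is low. Lymphoma_1032 and lymphoma_4936 differ at 741 genes, lymphoma_7890 and lymphoma_9250 at 218.

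The highest signals belonged to the protein synthesis machinery. Of the 30 genes with the highest means, 24 encode cytosolic ribosomal proteins and 2 are on the list of translation factors. Rpl37a, a protein of the large subunit, led with 14.05, 13.92, 13.90, 13.86 and 13.88, a mean of 13.92 ± 0.08. Tpt1, a growth-related protein counted with the translation list, gave 13.90, 13.82, 13.85, 13.86 and 13.84, and Eef1a1, the elongation factor that brings tRNA to the ribosome, 13.76, 13.82, 13.80, 13.85 and 13.78. Across tumours Rpl37a ranged over 0.19, Tpt1 over 0.08 and Eef1a1 over 0.10. The 30th gene, Rps7, had a mean of 13.39, and the first below it was Tmsb4x at 13.37.

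Of the 30 genes with the highest means, 4 were neither ribosomal proteins nor translation factors, and 2 of these had an SD above the median of all genes. Fth1, the heavy chain of the iron store ferritin, gave 13.52, 14.12, 13.28, 14.45 and 12.98, with an SD of 0.61. Tmsb10, an actin-binding thymosin, gave 13.72, 12.61, 13.13, 14.20 and 13.63, also with an SD of 0.61. Both were highest in lymphoma_1032, while Fth1 was lowest in lymphoma_4936 and Tmsb10 in lymphoma_7890. Actb, the cytoskeletal actin, stayed between 13.35 and 13.68. The probe sets of 26 of the 30 genes have IDs ending in _s_at, _x_at or _a_at. These mark possible binding to several transcripts, of the same gene or of related genes. Without such probe sets, 4 of the 30 were again among the highest, and the 30 then held 6 ribosomal proteins.

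The 25 most even genes with a mean of at least 8 had SDs of 0.01 to 0.05, and 17 of them were ribosomal proteins or translation factors. Rplp0, a protein of the ribosomal stalk, was the most even, with 13.71, 13.73, 13.73, 13.70 and 13.72. Rps28 gave 13.50, 13.53, 13.52, 13.51 and 13.55 and Rpl27 12.86, 12.81, 12.84, 12.85 and 12.87. Outside the ribosome, Naca, a subunit of the nascent polypeptide-associated complex, gave 12.97, 12.94, 12.96, 12.88 and 12.93. Prkci, an atypical protein kinase C, gave 8.49, 8.51, 8.48, 8.48 and 8.55. Rab10, a GTPase of vesicle traffic, gave 9.15, 9.24, 9.20, 9.17 and 9.24, and Trappc8, a subunit of a vesicle tethering complex, 9.19, 9.21, 9.19, 9.12 and 9.23. The 25th gene, Rpl38, had an SD of 0.0473 and the next, Trpc4ap, 0.0477, so that the edge of this set is arbitrary. Without the probe sets that may bind several transcripts, 6 of 25 were ribosomal proteins or translation factors. Of the 25 genes, 14 were again among the most even without lymphoma_5783 and 16 without lymphoma_1032 or lymphoma_4936. As a list, the 47 ribosomal proteins measured had a median SD of 0.06 and none had a range of at least 2; Rpl12 was the least even, with 8.92, 8.29, 7.89, 7.34 and 9.14.

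Genes in common use as references were not equally even. None of 30 had a range of at least 2, but 10 of 30 had an SD above the median of all genes. Tubb5, a beta tubulin, gave 12.21, 12.29, 12.26, 12.55 and 10.70, an SD of 0.74 that came from lymphoma_4936 alone. Gusb, a lysosomal enzyme, gave 9.37, 10.76, 10.18, 9.58 and 10.27, and B2m, the light chain of MHC class I, gave 13.24, 13.06, 12.28, 13.21 and 12.28, lower in lymphoma_9250 and lymphoma_4936. Hprt, of purine salvage, gave 11.25, 11.31, 11.50, 11.36 and 11.02, and Tbp, the TATA-binding protein, 7.38, 7.66, 8.14, 7.36 and 7.94.

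**Figure D2:**
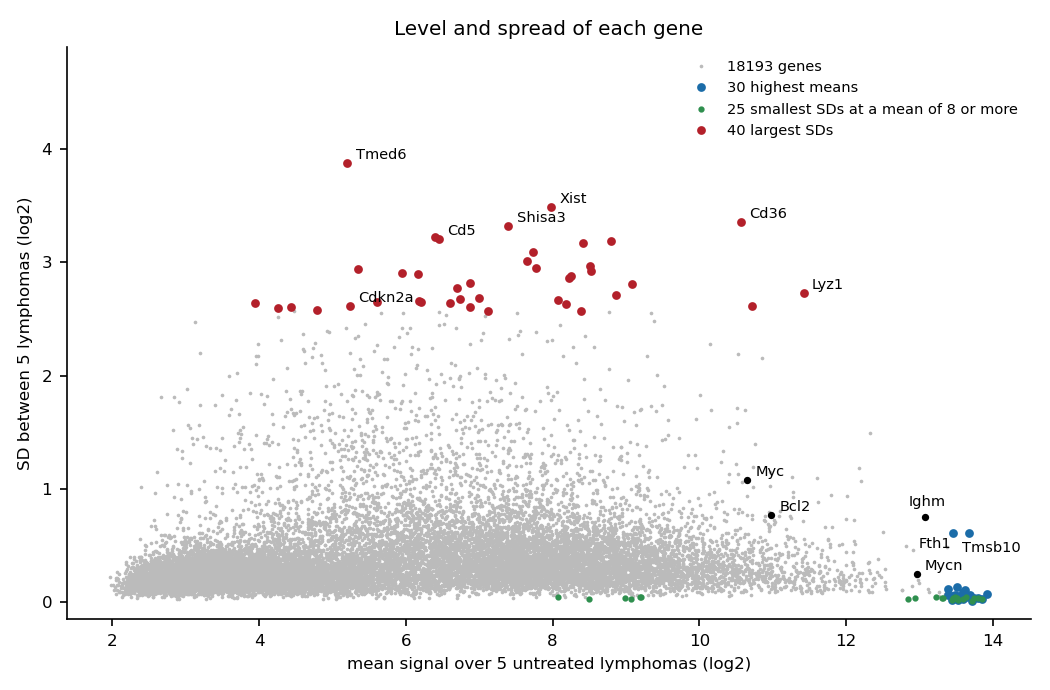
SD between the 5 untreated lymphomas against the mean signal, both log2, 1 grey point per gene. The 30 highest means (blue) and the 25 smallest SDs at a mean of 8 or more (green) overlap at the lower right, with Fth1 and Tmsb10 above them at 0.61; the 40 largest SDs (red) lie from 2.57 to 3.88.

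The 40 genes with the largest SDs, 2.57 to 3.88, included 4 of the macrophage marker list and no ribosomal protein. The highest signal was in lymphoma_1032 for 22 of the 40, in lymphoma_7890 for 7, in lymphoma_4936 for 6, in lymphoma_5783 for 5 and in lymphoma_9250 for none. For 9 genes the widest gap set lymphoma_7890 and lymphoma_9250 below the other three. For 8 it set lymphoma_7890 and lymphoma_1032 above the rest, and for 6 it set lymphoma_1032 above all. Other probe sets with a mean above 4.47 existed for 17 of the 40 genes. Of these 35 probe sets, 27 were highest in the same lymphoma as the chosen one, and 26 had an SD of at least 1. Of the 40 genes, 21 kept their place without lymphoma_1032 and 26 without lymphoma_4936, and ranked by median absolute deviation 14 were again among the first 40. The last gene inside the set, Fcer1g, had an SD of 2.573, and the next, Rgs13, one of 2.567.

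Tmed6, a member of the family of cargo receptors of the early secretory pathway, had the largest SD of all genes, 3.50, 3.57, 3.37, 3.45 and 12.13. It lay below the array median in 4 lymphomas, and in lymphoma_4936 it was 8.57 log2 units above the next. Zfp445, a zinc-finger protein that maintains imprints, gave 10.82, 6.42, 4.38, 11.08 and 11.28, high in 3 lymphomas, lower in lymphoma_7890 and lowest in lymphoma_9250. Dynlt3, a dynein light chain, showed the same division, 10.66, 5.25, 4.70, 11.28 and 10.15, as did St3gal6, a sialyltransferase, 9.99, 4.52, 4.83, 10.90 and 8.64, and Tmem255a, a membrane protein, 8.71, 3.25, 4.45, 8.65 and 8.65. Reln, a secreted matrix protein of the developing brain, gave 11.37, 7.29, 8.47, 4.24 and 11.20, with lymphoma_1032 lowest. St3gal6 and Tmem255a each had another probe set that was flat, with SDs of 0.24 and 0.40, while others showed the division. Gimap4, a GTPase of lymphocytes, and Hivep3, a zinc-finger factor, were lowest in lymphoma_7890, 9.16, 4.30, 7.11, 11.88 and 10.16 and 7.56, 2.78, 6.15, 8.27 and 9.59. The other Hivep3 probe sets had SDs of 0.18 to 0.36, so that its difference rests on the chosen probe set alone. Car2, a carbonic anhydrase, was high in lymphoma_1032 and lymphoma_4936, 4.50, 3.66, 3.09, 9.17 and 7.61. Cpn1, a plasma carboxypeptidase, was highest in lymphoma_5783, 10.79, 6.70, 7.60, 4.71 and 3.65, as was Clec2g, a C-type lectin, 7.76, 1.89, 1.91, 5.64 and 2.50.

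**Figure D3:**
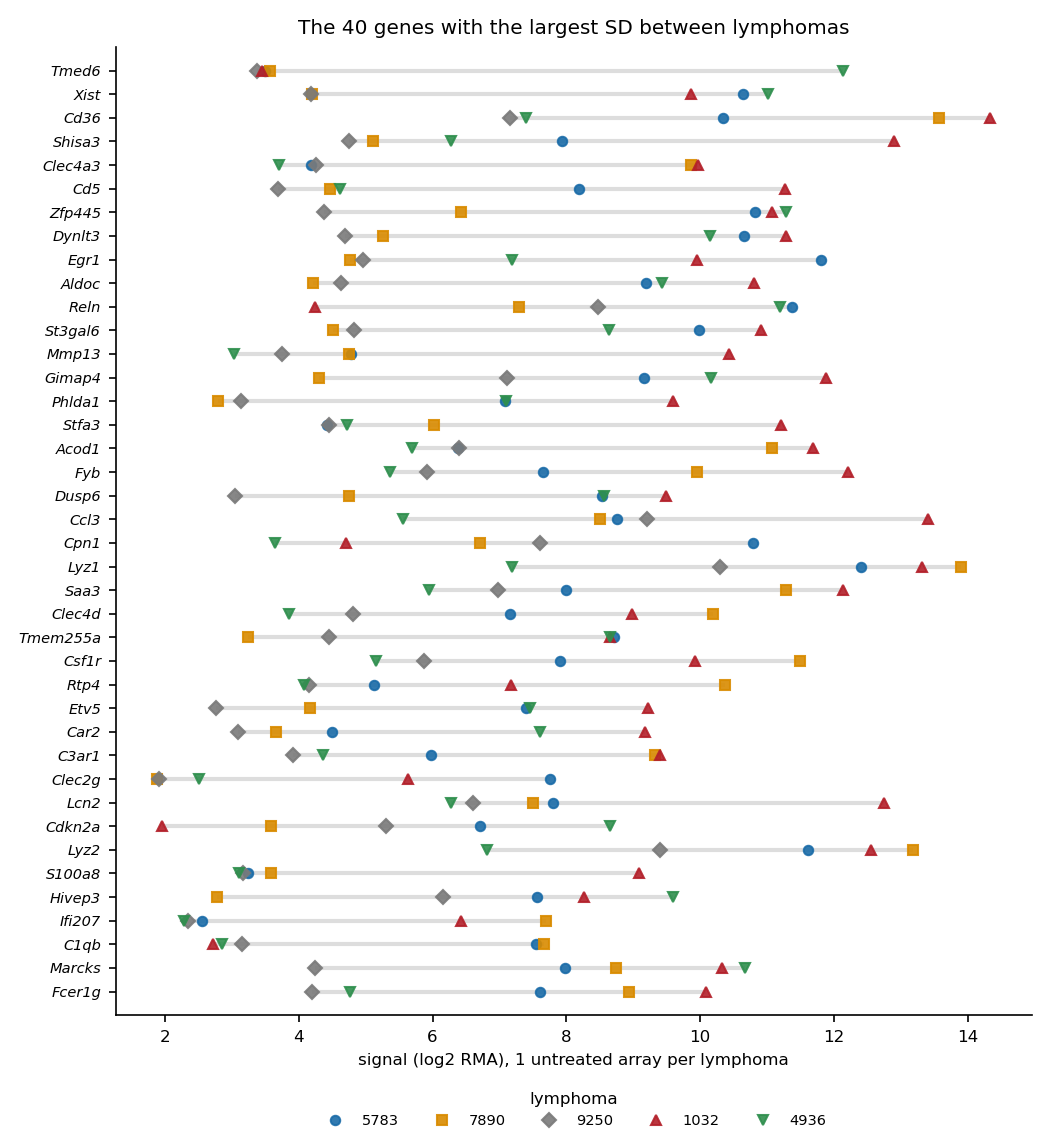
Signals (log2 RMA) of the 40 genes with the largest SD, ordered by SD from the top, 1 symbol per untreated lymphoma and a grey bar over the range. Tmed6 is high in lymphoma_4936 only, Clec4a3 and Acod1 in lymphoma_7890 and lymphoma_1032, and Dusp6 and Zfp445 are low in lymphoma_7890 and lymphoma_9250.

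B-cell identity was present in every tumour. Of the 38 genes of B-cell identity and receptor signalling that were measured, 36 had a mean above the median of all probe sets, as had 62.9% of all genes. Ighm, the immunoglobulin mu heavy chain, gave 13.95, 12.85, 12.36, 12.44 and 13.81. Cd79a, a signalling chain of the B-cell receptor, gave 10.77, 10.05, 10.17, 8.80 and 9.78, and its partner Cd79b 11.75, 11.33, 11.40, 10.07 and 10.52. Ptprc, the leukocyte phosphatase CD45, was even, 11.66, 11.66, 11.67, 11.87 and 11.88. Ebf1, a factor that specifies the B lineage, gave 8.97, 7.16, 7.34, 7.16 and 7.77, highest in lymphoma_5783. Pax5, the factor that commits to it, had signals of 5.43, 5.20, 5.59, 4.89 and 5.19 on a probe set close to the array median, so that these values say little of its level. Ighd and Igkc are not analysed here.

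The list was uneven in part: 12 of 38 members, 31.6%, had a range of at least 2, against 7.81% of all genes. Its mean signal was 9.35, 8.42, 8.64, 8.24 and 8.81. Of the 38 members, 19 were highest in lymphoma_5783 and 16 lowest in lymphoma_1032, against 12.9% and 29.3% of genes above a signal of 6. Ms4a1, the B-cell surface protein CD20, had the largest SD, with 10.98, 8.99, 9.88, 5.09 and 7.87. Cd24a, a surface protein of immature B cells, gave 12.61, 12.31, 12.47, 10.84 and 12.32, and Fcrla, an intracellular Fc receptor-like protein, 9.46, 7.02, 7.63, 5.13 and 7.76, both lowest in lymphoma_1032. Ltb, lymphotoxin beta, gave 10.04, 5.75, 6.40, 10.33 and 9.04, low in lymphoma_7890 and lymphoma_9250. Ccr7, the receptor that guides cells within lymph nodes, gave 8.71, 7.21, 9.23, 6.28 and 10.29, lowest in lymphoma_1032 and highest in lymphoma_4936.

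Genes of the pro-B and pre-B stages were mixed. Rag1, a subunit of the V(D)J recombinase, gave 5.38, 3.38, 5.22, 1.34 and 7.66, highest in lymphoma_4936 and lowest in lymphoma_1032. Rag2, its partner, stayed near the array median on all arrays, 4.53, 4.09, 4.09, 4.28 and 4.28. Vpreb1 and Igll1, the surrogate light chain, gave 5.32, 4.35, 3.32, 4.79 and 4.19 and 6.30, 5.54, 5.74, 5.92 and 5.65. Dntt, the polymerase that adds bases at junctions, gave 6.25, 4.84, 7.28, 4.90 and 5.74, with lymphoma_9250 highest. Il7r, the receptor for the pre-B growth factor interleukin 7, gave 6.96, 7.89, 5.57, 7.38 and 8.39, and Lef1, a Wnt pathway factor of early B cells, 7.20, 4.69, 5.30, 7.49 and 8.75. No tumour was highest for all of these genes. Of 19 members, 7 were highest in lymphoma_5783 and 5 in lymphoma_4936, against 12.9% and 22% of genes above a signal of 6.

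Variable-region genes, of which a B-cell clone rearranges its own, were uneven in part. Of 20 immunoglobulin genes measured, 6 had a range of at least 2, and 3 without lymphoma_1032. Igkv9-120 gave 6.39, 3.17, 3.16, 3.05 and 2.97 and was above the array median only in lymphoma_5783. Igkv14-111 gave 3.11, 3.07, 3.63, 2.98 and 6.17, above it only in lymphoma_4936. Ighv14-2 gave 7.73, 6.19, 7.17, 3.13 and 8.15, with lymphoma_1032 lowest. Igkv8-30 and Iglv1 were above the array median in all 5 tumours, 12.15, 10.47, 11.40, 9.21 and 11.57 and 10.34, 7.20, 8.23, 7.71 and 7.46. V genes of a family share sequence, so these probe sets may read related genes.

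Later B-cell stages differed as well. Rgs13, a regulator of G-protein signalling typical of germinal-centre cells, was high in lymphoma_5783 only, 8.85, 3.20, 2.83, 4.71 and 2.79, while Bcl6, the germinal-centre repressor, was more even, 7.10, 6.94, 7.33, 8.05 and 7.12. Prdm1, the repressor that drives plasma-cell differentiation, was highest in lymphoma_1032, 7.11, 6.30, 5.65, 10.44 and 7.56. Irf4, a factor of activated B cells and plasma cells, was highest elsewhere, 9.45, 6.80, 8.27, 6.96 and 9.98. Jchain, which links secreted IgM, gave 9.17, 4.94, 5.89, 8.26 and 8.18, low in lymphoma_7890 and lymphoma_9250. Mzb1, a chaperone of antibody secretion, differed less, 12.35, 11.43, 11.95, 11.87 and 11.57. Class II MHC was lowest in lymphoma_1032, with list means of 9.27, 8.81, 9.04, 8.27 and 8.99; H2-Aa gave 10.84, 10.72, 10.69, 8.99 and 10.62.

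Myc itself gave 10.12, 11.03, 11.89, 9.09 and 11.15, a mean of 10.66 ± 1.08, highest in lymphoma_9250 and lowest in lymphoma_1032, a range of 2.80. Among its partners and antagonists, 2 of 13 measured genes, Myc and Mxd1, had a range of at least 2, or 15.4%; without lymphoma_9250 or lymphoma_1032 it was 1. Max, the obligate partner, gave 7.52, 7.83, 8.17, 7.03 and 8.13. The antagonist Mxd1 was highest in lymphoma_9250, 6.08, 6.15, 8.38, 7.05 and 6.66, and Mxi1 in lymphoma_4936, 8.99, 9.11, 8.99, 8.93 and 10.08. Mnt, a repressor that binds the same sites, and Mga, a large Max partner, were both lowest in lymphoma_1032, 8.61, 8.64, 8.45, 7.62 and 8.47 and 8.19, 8.29, 8.40, 7.13 and 8.90. Mxd3 gave 6.73, 5.74, 5.85, 7.0 and 5.15, Mxd4 8.60, 7.61, 7.63, 7.41 and 8.33, Mlx 6.72, 6.92, 7.06, 7.56 and 6.43 and Mlxip 9.25, 8.86, 8.63, 9.02 and 10.29. Mlxipl and Mycl stayed below the median of all probe sets on every array. Mycn read 12.77, 12.74, 12.84, 13.22 and 13.23 on its chosen probe set but at most 5.55 on either of its other 2, so that no level is given for it.

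Ribosome biogenesis genes, classical Myc targets, were lowest in lymphoma_1032, the tumour with the lowest Myc signal. Their list mean was 9.70, 10.12, 10.20, 9.14 and 10.15, and 31 of 38 members were lowest there. Nolc1, a nucleolar assembly protein, gave 9.67, 10.39, 10.46, 8.55 and 10.88. Polr1b, a subunit of RNA polymerase I, gave 8.17, 8.87, 8.84, 6.73 and 8.66, and Rcl1, an endonuclease of ribosomal RNA, 8.90, 10.01, 10.44, 8.44 and 10.43. Ncl, nucleolin, gave 12.28, 12.64, 12.55, 11.73 and 12.35, and Npm1, nucleophosmin, was nearly even, 12.73, 12.93, 13.10, 12.78 and 12.92. Ccnd2, a D-type cyclin, was the least even of the list and moved otherwise, 8.16, 5.43, 6.67, 9.20 and 10.14, lowest in lymphoma_7890.

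Proliferation genes were lowest in lymphoma_4936. The list of G2 and mitosis had means of 9.02, 9.04, 9.02, 8.90 and 8.09, and 31 of 32 members were lowest in that tumour. Of genes above a signal of 6, 30.4% were lowest in it. Mki67, the proliferation marker, gave 10.48, 10.84, 10.63, 10.29 and 9.54, Top2a, topoisomerase II, 11.07, 11.20, 11.22, 10.85 and 9.92, and Bub1, a kinase of the spindle checkpoint, 9.86, 9.64, 9.76, 10.06 and 8.13. Genes of S phase followed, with list means of 9.0, 9.34, 9.19, 8.70 and 8.15 and 24 of 31 lowest there: Rrm2, a subunit of ribonucleotide reductase, gave 11.03, 10.86, 10.67, 10.96 and 9.15, and Tk1, thymidine kinase, 8.11, 9.0, 8.35, 8.46 and 6.40. Few single members were uneven: no G2 and mitosis gene and 2 of 31 S-phase genes, 6.45%, had a range of at least 2. Without lymphoma_4936 no S-phase gene did, and without lymphoma_9250 it was 1.

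The cell-cycle inhibitors differed most at the Ink4 locus. Cdkn2a, which encodes p16Ink4a and Arf, gave 6.71, 3.58, 5.30, 1.96 and 8.66, an SD of 2.62. It was highest in lymphoma_4936 and below the array median in lymphoma_7890 and lymphoma_1032. The neighbouring gene Cdkn2b, for p15Ink4b, had the opposite extreme, 5.44, 5.50, 5.91, 10.85 and 6.70, highest in lymphoma_1032. Mtap, a methylthioadenosine phosphorylase next to both and often lost with them, had signals on all arrays, 8.53, 9.63, 9.55, 8.96 and 9.34; it was looked up after these values were seen. Whether Cdkn2a is deleted in any tumour was not tested, since the arrays measured RNA.

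Cdkn1a, the p21 inhibitor and main p53 target, gave 11.45, 9.27, 10.14, 11.92 and 8.85, a range of 3.07. Cdkn2d, p19Ink4d, gave 9.01, 7.80, 8.57, 9.92 and 6.46, lowest in lymphoma_4936. Cdkn1b, p27, gave 8.73, 7.76, 8.33, 8.74 and 8.03, and Cdkn2c, p18Ink4c, 8.62, 7.93, 7.30, 7.78 and 7.21. Cdkn1c, p57, lay near the array median, 3.84, 4.15, 4.86, 4.04 and 4.14. The pocket proteins were more even: Rb1 gave 9.60, 8.95, 8.83, 9.63 and 8.64, Rbl1 7.88, 8.46, 8.05, 7.91 and 6.48 and Rbl2 8.18, 7.58, 7.83, 8.12 and 6.95.

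Targets of p53 were higher in lymphoma_5783 and lymphoma_1032, with list means of 8.26, 7.25, 7.56, 8.41 and 7.77. Of 32 members, 12 were highest in lymphoma_5783, 13 in lymphoma_1032, and 13 were lowest in lymphoma_7890. Among genes above a signal of 6, the shares were 12.9%, 28.1% and 12.8%, in the same order. A range of at least 2 was found for 12 members, 37.5% against 7.81% of all genes. Mdm2, which marks p53 for destruction, gave 10.19, 8.69, 9.08, 10.40 and 9.26, and Ccng1, cyclin G1, 11.29, 10.01, 10.30, 11.31 and 10.37. Psrc1, a microtubule-binding protein, gave 11.09, 7.28, 8.47, 10.89 and 8.25. Perp, an effector of p53 in apoptosis and adhesion, broke the pattern, 2.75, 2.40, 3.03, 2.65 and 7.14, above the array median in lymphoma_4936 only. Trp53 is not analysed here.

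Bcl2, the transduced survival gene, gave 11.76, 11.23, 11.52, 10.48 and 9.91 on its chosen probe set. Its 4 other probe sets had means of 3.06 to 6.53, and which of them lie within the retroviral insert is not given in the sources used here. Mcl1, a related survival protein, gave 11.89, 11.31, 11.28, 12.02 and 12.40, and Bcl2l11, the death-promoting Bim, 10.91, 10.53, 10.67, 10.98 and 11.76, both highest in lymphoma_4936. Bcl2l1, Bcl-xL, was highest in lymphoma_1032, 6.97, 7.09, 7.17, 8.44 and 6.81, as was Bcl2l2, Bcl-w, 7.55, 4.74, 5.18, 8.88 and 5.27. Of 17 family members 2 had a range of at least 2, or 11.8%, and without lymphoma_1032 it was 1.

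No histone H3 lysine 9 gene of 22 measured had a range of at least 2, against 7.81% of all genes. Their median SD was 0.32 against 0.29 for all genes, and 13 of 22 exceeded that value. Suv39h2, the paralogue of the deleted methyltransferase, gave 5.56, 6.34, 6.70, 6.05 and 5.95, a mean of 6.12 ± 0.43. Trim28, the corepressor that recruits H3 lysine 9 methylation to repeats, gave 10.24, 10.89, 10.94, 9.69 and 10.81, and Ehmt2, the G9a methyltransferase, 9.63, 9.80, 9.92, 9.66 and 9.12. Suv39h1 is not analysed here, so its deletion could not be checked on these arrays.

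**Figure D4:**
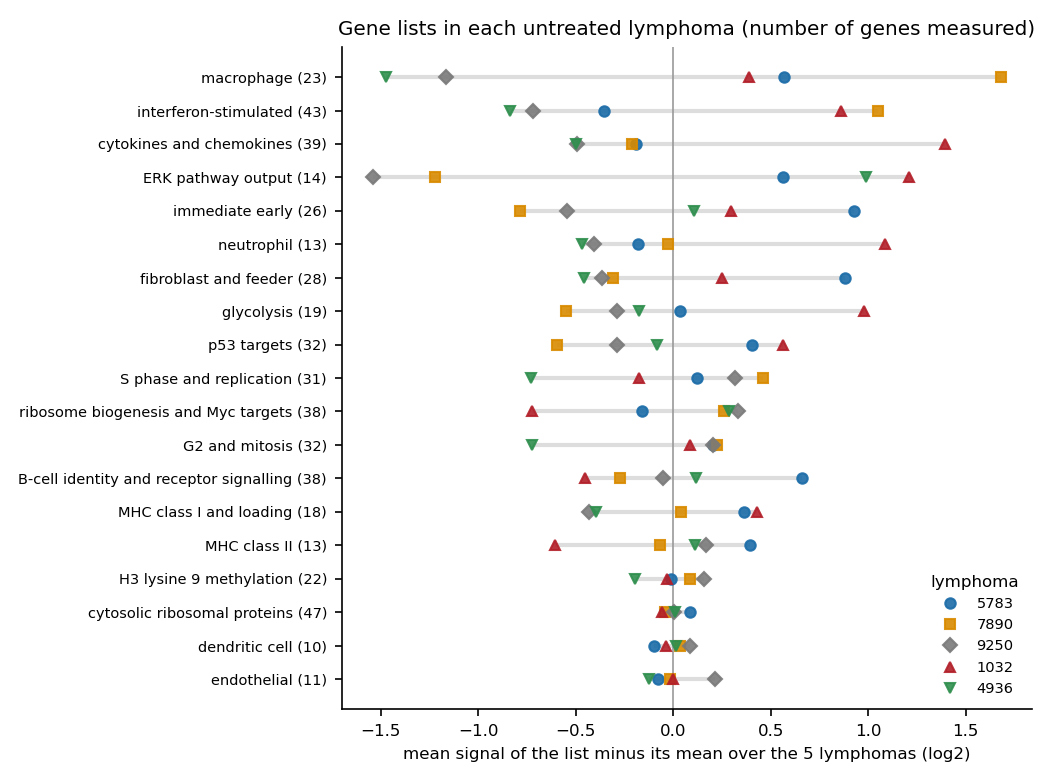
Mean signal of each gene list in each untreated lymphoma, minus the mean over the 5 lymphomas (log2), 1 symbol per lymphoma and a grey bar over the range; the number of genes measured is in brackets. The interferon list is highest in lymphoma_7890 and lymphoma_1032, the macrophage list in lymphoma_7890 and lymphoma_5783, G2 and mitosis is low in lymphoma_4936, and the ribosomal proteins lie close to 0.

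Macrophage markers were the most uneven marker list. Of 23 measured, 19 had a range of at least 2, 82.6% against 7.81% of all genes, and their list means were 7.02, 8.13, 5.29, 6.84 and 4.98. The number of members above the median of all probe sets was 19, 19, 13, 16 and 13. Lyz2, lysozyme M, gave 11.61, 13.19, 9.40, 12.56 and 6.81, and Lyz1 12.40, 13.90, 10.30, 13.31 and 7.20. Csf1r, the receptor for macrophage colony-stimulating factor, gave 7.90, 11.49, 5.87, 9.93 and 5.16. Mpeg1, a pore-forming protein of macrophages, gave 9.43, 11.32, 8.06, 10.81 and 7.43. All 4 were highest in lymphoma_7890 and lowest in lymphoma_4936. In bulk RNA, more cells of a type and more RNA per cell cannot be told apart.

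The macrophage genes did not all share this order. C1qb, a complement subunit, was high in lymphoma_5783 and lymphoma_7890 only, 7.55, 7.67, 3.15, 2.72 and 2.85. Mrc1, the mannose receptor, was high in lymphoma_5783 only, 7.64, 3.95, 3.0, 3.21 and 3.12. Marco, a scavenger receptor, was high in lymphoma_7890 only, 4.99, 8.30, 4.38, 5.11 and 4.54, as was Clec7a, the beta-glucan receptor, 3.98, 7.31, 3.74, 4.50 and 2.97. Fcgr1, a high-affinity Fc receptor named here after its values were seen, was high in lymphoma_7890 and lymphoma_1032, 4.74, 8.32, 4.17, 9.03 and 4.0. Cd163, Timd4 and Vsig4, markers of resident macrophages also named after their values were seen, did not exceed 3.74 on any array.

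Among the 40 least even genes, 8 outside this list are given here, picked after their values were seen. Cd36, a scavenger receptor and fatty acid transporter, gave 10.34, 13.57, 7.16, 14.34 and 7.40, more than 7 log2 units between lymphoma_9250 and lymphoma_1032. Clec4a3, a lectin of myeloid cells, gave 4.19, 9.87, 4.25, 9.97 and 3.70, and Clec4d, a lectin of macrophages and neutrophils, 7.16, 10.19, 4.81, 8.98 and 3.86. Acod1, which makes itaconate in activated macrophages, gave 6.39, 11.08, 6.40, 11.68 and 5.69. Fyb, an adaptor of T and myeloid cells, gave 7.66, 9.95, 5.92, 12.21 and 5.36, and Fcer1g, the shared Fc receptor chain, 7.61, 8.94, 4.19, 10.09 and 4.76. Saa3, an acute-phase protein, gave 7.99, 11.28, 6.98, 12.14 and 5.95, and C3ar1, the complement C3a receptor, 5.98, 9.32, 3.91, 9.40 and 4.36. In each of these 8 genes both lymphoma_7890 and lymphoma_1032 exceeded the other three. The mean of the macrophage list was higher in lymphoma_5783 than in lymphoma_1032. Of its members, Lyz2, Lyz1, Csf1r, Mpeg1 and Fcgr1 were higher in lymphoma_1032, and C1qb and Mrc1 in lymphoma_5783. The part of macrophages in these differences was not tested.

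Fibroblast and feeder genes were highest in lymphoma_5783. The list means were 6.44, 5.25, 5.19, 5.81 and 5.10. Of 28 members, 15 were highest in lymphoma_5783, against 12.9% of genes above a signal of 6. A range of at least 2 was found for 13, or 6 without lymphoma_5783. Col3a1, collagen III, gave 6.85, 2.91, 2.83, 3.22 and 2.63 and lay below the array median in the other four. Dcn, decorin, gave 9.05, 5.66, 4.95, 6.85 and 5.35. Fn1, fibronectin, was high in lymphoma_5783 and lymphoma_1032, 9.14, 6.94, 7.23, 9.20 and 6.91. Col1a1, the main fibroblast collagen, was nearly even, 5.32, 4.96, 4.95, 5.04 and 5.39. Outside this list, F13a1, coagulation factor XIII, gave 7.86, 3.10, 3.06, 3.06 and 2.81, also high in lymphoma_5783 only. Pf4, a platelet chemokine, gave 8.83, 3.64, 3.95, 3.98 and 3.40, with the same tumour high. It belongs to the erythroid and platelet list, where 1 of 12 measured members, Pf4 itself, had a range of at least 2. Itga2b, another member, stayed between 5.81 and 6.02. The cell source of F13a1 and Pf4 was not tested.

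Markers of other cell types differed less between tumours than the macrophage list. Of the T-cell markers, 11 of 18 had a mean above the median of all probe sets, against 62.9% of all genes. Of the dendritic-cell markers 5 of 10 did, and of the endothelial markers 4 of 11. None of these counts exceeded the share over all genes. The T-cell genes Cd3e and Zap70 gave 5.08, 5.21, 5.38, 5.54 and 5.32 and 7.43, 7.20, 7.45, 7.34 and 7.32, with no tumour apart, and 3 of 18 members of that list had a range of at least 2. Cd5, a T-cell protein that some B cells carry, was one of the 3, with 8.20, 4.46, 3.69, 11.26 and 4.62, highest in lymphoma_1032 and intermediate in lymphoma_5783. Cd2, an adhesion protein of lymphocytes, was another, 7.96, 5.71, 6.75, 4.81 and 8.75. Klrd1, the CD94 chain of a natural killer receptor, was above the array median in lymphoma_1032 and lymphoma_4936 only, 1.47, 1.28, 1.23, 5.53 and 6.10, while 9 of the 10 NK-cell markers had a range under 2. None of the 10 dendritic-cell and 11 endothelial markers had a range of at least 2.

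Interferon-stimulated genes were highest in lymphoma_7890 and lymphoma_1032. Of 43 measured, 28 had a range of at least 2, or 65.1%. Highest in lymphoma_7890 were 25 and in lymphoma_1032 16, against 19.3% and 28.1% of genes above a signal of 6. Lowest in lymphoma_4936 were 22 and in lymphoma_9250 13, against 30.4% and 11.3% of such genes. The list means were 6.56, 7.96, 6.19, 7.77 and 6.08. Usp18, which removes the ubiquitin-like Isg15, gave 3.84, 7.93, 4.09, 8.25 and 3.93, and Rtp4, a receptor transporter, 5.12, 10.37, 4.15, 7.17 and 4.08. Ifi204, a DNA sensor, gave 2.98, 7.13, 2.37, 6.0 and 3.42, and Ifi207, a relative of it, 2.55, 7.69, 2.34, 6.42 and 2.28. Gbp2, a guanylate-binding protein, differed in its order, 9.33, 8.42, 5.78, 10.20 and 6.57, with lymphoma_5783 above lymphoma_7890. The macrophage list mean was highest in lymphoma_7890, then lymphoma_5783, then lymphoma_1032. Its members Lyz2, Lyz1, Csf1r and Mpeg1 were highest in lymphoma_7890, then lymphoma_1032, while C1qb and Mrc1 were higher in lymphoma_5783 than in lymphoma_1032. The part of macrophages in the interferon difference was not tested. Isg15 is not analysed here.

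Promoter sequences of interferon genes often hold the binding letters of interferon-activated factors, GAAANNGAAA, searched on both strands with overlapping matches counted. RefSeq promoter windows of 300 bases, from 250 before to 50 after the start, were found for 30 of the 43 genes, and 18 of them, 60.0%, held a match in at least 1 window, against 3.99% of all 27025 genes with a window in the table. Among those with a range of at least 2 it was 11 of 19, and among the more even ones 7 of 11. The promoters of 3 genes are printed to set an uneven pair beside a gene with a range under 2. They show the 150 bases before the start, from RefSeq build GRCm38.p6, with matches in capitals. Oas1a, an RNA-sensing synthetase (chr5:120907526-120907675, minus strand), holds 2 overlapping matches, Gbp2 (chr3:142620513-142620662, plus strand) 1 on the opposite strand, and Bst2, the tetherin that holds back viruses (chr8:71537473-71537622, minus strand), 2 overlapping matches.
Oas1a: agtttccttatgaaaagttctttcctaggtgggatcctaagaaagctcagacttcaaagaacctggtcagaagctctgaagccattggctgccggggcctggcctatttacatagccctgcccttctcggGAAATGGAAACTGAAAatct
Gbp2: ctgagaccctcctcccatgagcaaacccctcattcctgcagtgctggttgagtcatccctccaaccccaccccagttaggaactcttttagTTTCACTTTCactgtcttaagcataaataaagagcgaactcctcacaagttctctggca
Bst2: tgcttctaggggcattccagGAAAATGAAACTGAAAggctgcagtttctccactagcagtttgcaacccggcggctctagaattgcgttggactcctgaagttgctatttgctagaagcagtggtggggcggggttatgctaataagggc

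Oas1a, chosen with Bst2 after the values were seen, gave 6.25, 9.56, 6.21, 9.14 and 6.28, high in lymphoma_7890 and lymphoma_1032 and level in the other three. Bst2, whose promoter also held matches, gave 9.10, 9.24, 8.66, 9.56 and 9.24, an SD of 0.33. A match describes the sequence only. Genes of MHC class I followed another order than the interferon list, with list means of 9.04, 8.72, 8.25, 9.11 and 8.28: H2-K1, a class I heavy chain, gave 12.76, 11.75, 10.48, 12.65 and 11.34, and H2-D1 12.99, 11.96, 10.72, 12.82 and 11.55. Tap1, the peptide transporter, gave 9.23, 8.23, 7.75, 9.36 and 6.81, and Nlrc5, the class I transactivator, 8.20, 6.77, 5.40, 9.24 and 6.53. All 4 were high in lymphoma_5783 and lymphoma_1032.

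Immediate early genes were low in lymphoma_7890 and lymphoma_9250. The list means were 8.61, 6.90, 7.14, 7.98 and 7.80, and 15 of 26 members, 57.7%, had a range of at least 2. Egr1, a factor induced within minutes of a growth signal, gave 11.80, 4.77, 4.96, 9.95 and 7.18, and Egr2 8.56, 3.04, 4.13, 6.32 and 4.79. Nr4a2, an orphan nuclear receptor, followed another order, 7.53, 4.63, 6.46, 3.86 and 8.18, lowest in lymphoma_1032.

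Feedback genes of the ERK kinase pathway were compared as a set. The set of 14 genes, put together after the values were seen and sharing Egr1, Dusp5 and Dusp6, among others, with the immediate early list, had means of 6.83, 5.05, 4.73, 7.47 and 7.25. Dusp6, a phosphatase of ERK, gave 8.54, 4.76, 3.04, 9.50 and 8.57. Etv5, an ETS factor, gave 7.39, 4.16, 2.76, 9.22 and 7.46, and Phlda1, a pleckstrin-like protein, 7.08, 2.79, 3.14, 9.60 and 7.10. Spry2, a receptor kinase inhibitor, gave 4.85, 1.94, 1.85, 5.89 and 6.96. These 4 genes were low in lymphoma_7890 and lymphoma_9250 and high in the other three. In the whole set, lymphoma_7890 and lymphoma_9250, the closest pair of arrays, were the lowest pair for 9 of 14 genes. The share over all genes was not computed. By the widest gap, another measure, this pair lay below the others for 5.91% of the 1421 genes with a range of at least 2. Ccnd1, cyclin D1, was lowest in lymphoma_1032, 8.47, 8.80, 8.81, 7.76 and 8.52, and Dusp5, another ERK phosphatase, was higher in lymphoma_9250 than in lymphoma_1032, 9.79, 6.46, 8.14, 7.48 and 10.0. No lesion of the pathway was measured.

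Cytokines and chemokines were highest in lymphoma_1032. Its list mean was 7.34, against 5.45 to 5.75 in the others. Of 39 members, 24 were highest in lymphoma_1032, against 28.1% of genes above a signal of 6. A range of at least 2 was found for 22, or 56.4%, and for 11 without lymphoma_1032. Il6, interleukin 6, gave 5.99, 5.09, 5.76, 10.99 and 4.87, and Ccl3, a chemokine for monocytes, 8.76, 8.50, 9.20, 13.40 and 5.55. Ebi3, a subunit of interleukins 27 and 35, gave 8.58, 8.88, 5.98, 12.03 and 6.74. Csf2 and Csf3, colony-stimulating factors named after their values were seen, gave 4.32, 4.32, 4.31, 7.24 and 4.29 and 4.12, 4.02, 4.03, 7.39 and 3.94, at the level of the array median or below in the other four. Ccl9 was high in lymphoma_7890 and lymphoma_1032, 8.22, 11.23, 8.99, 12.37 and 6.11.

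Lymphoma_1032 was also set apart by other genes. Of the glycolysis list, 16 of 19 members were highest there, against 28.1% of genes above a signal of 6. The list means were 9.35, 8.76, 9.02, 10.29 and 9.14. Slc2a1 and Slc2a3, glucose transporters, gave 9.91, 9.39, 9.23, 12.04 and 9.30 and 8.43, 8.36, 8.58, 11.13 and 8.0, and Hk2, hexokinase, 8.83, 9.29, 9.03, 10.73 and 7.97. Aldoc, an aldolase, was low in lymphoma_7890 and lymphoma_9250, 9.18, 4.21, 4.64, 10.81 and 9.42. S100a8, a calcium-binding protein of neutrophils, gave 3.23, 3.59, 3.16, 9.08 and 3.10, and Lcn2, an iron-sequestering lipocalin, 7.81, 7.50, 6.61, 12.76 and 6.27. The neutrophil list was mixed: 5 of 13 members, 38.5%, had a range of at least 2, and 1 without lymphoma_1032. Mmp9, a gelatinase, gave 5.73, 5.52, 4.59, 7.74 and 5.02 and Mmp8, a collagenase, 5.07, 6.66, 5.21, 7.09 and 4.45, both highest in lymphoma_1032. S100a9, the partner of S100a8, and Mpo, myeloperoxidase, both named after their values were seen, did not exceed 3.69 on any array. Mmp13, a collagenase, gave 4.78, 4.75, 3.74, 10.43 and 3.03, Stfa3, a protease inhibitor, 4.42, 6.03, 4.45, 11.21 and 4.71, and Shisa3, a Wnt antagonist, 7.94, 5.10, 4.75, 12.90 and 6.28. Sema4c, a semaphorin, gave 3.63, 3.74, 3.97, 8.74 and 3.60, and Olfm1, an olfactomedin, 5.46, 5.42, 4.60, 10.17 and 4.42. Itgal, the integrin LFA-1 alpha chain, gave 9.80, 7.81, 7.26, 12.11 and 8.17.

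The genes given next were chosen for being high in lymphoma_4936 alone. Cdh16, the kidney cadherin, gave 4.63, 4.33, 3.99, 4.11 and 9.45, and Cltrn, collectrin of the kidney tubule, 2.02, 2.38, 2.22, 2.25 and 7.13. Fzd6, a Wnt receptor, gave 4.69, 4.80, 4.94, 4.90 and 9.86, Camk2n1, an inhibitor of CaM kinase II, 4.18, 3.74, 3.75, 3.79 and 9.19, and Smad1, an effector of BMP signals, 3.95, 3.51, 4.01, 3.08 and 8.51. Hgfac, the activator of hepatocyte growth factor, gave 2.89, 2.71, 3.20, 3.08 and 8.05, and Tmem252, a membrane protein, 4.47, 4.77, 4.83, 4.92 and 9.52. A further 4 genes, named after their values were seen, showed the same: Ehf, an epithelial ETS factor, gave 4.26, 3.67, 4.24, 4.38 and 7.87, Cldn2, a claudin of leaky epithelia, 4.31, 4.56, 4.34, 4.12 and 7.51, Tinag, a basement membrane antigen, 2.19, 2.26, 1.76, 2.52 and 6.35, and Sox9, a factor of many progenitors, 4.26, 3.92, 4.07, 4.17 and 7.33. Of the defining markers of epithelia, Epcam gave 5.24, 5.53, 5.40, 5.49 and 5.50, Cdh1, E-cadherin, 2.82, 2.66, 2.67, 3.08 and 3.08, and Krt18 4.74, 4.12, 3.85, 4.40 and 4.07. Of 8 such markers, chosen after the values were seen, none had a range of at least 2, and their mean was 4.01 in lymphoma_4936 against 3.90 to 4.04 in the others.

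Of the genes with 1 lymphoma apart, 21 were low in lymphoma_4936 and 56 high. By the widest gap alone, among genes with a range of at least 2, 136 had this tumour below all others and 142 above. Lifr, the receptor for leukaemia inhibitory factor, gave 7.27, 6.75, 7.24, 7.14 and 3.34, and Lrrk2, a large kinase, 7.53, 7.28, 7.15, 8.09 and 3.59. Plxnc1, a semaphorin receptor, gave 8.40, 9.35, 8.13, 8.52 and 4.76, and Ifitm2, a membrane protein that restricts viruses, 10.82, 11.51, 11.46, 13.16 and 7.32.

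Lymphoma_5783, lymphoma_7890 and lymphoma_9250 had few genes of their own. Tent5c, a poly(A) polymerase lost in some myelomas, was lowest in lymphoma_5783, 5.56, 9.07, 9.24, 8.62 and 8.63. Cited1, a transcriptional coactivator, was highest in lymphoma_7890, 4.33, 8.72, 5.0, 5.58 and 4.57, as were Fabp4, a fatty acid binding protein of fat and macrophages, 5.09, 9.86, 4.48, 6.66 and 4.72, and Cers6, a ceramide synthase, 4.56, 7.65, 3.69, 4.13 and 3.90. P2ry10 and Itm2a, an X-linked lipid receptor and an X-linked membrane protein, were lowest in it, 9.33, 3.87, 7.85, 7.79 and 10.03 and 9.45, 4.23, 7.57, 10.16 and 8.57. In lymphoma_9250, Cyp39a1, an oxysterol hydroxylase, was highest, 4.73, 5.41, 8.39, 5.25 and 4.62, and Tubb3, a beta tubulin of neurons, also, 4.09, 6.34, 8.09, 4.47 and 4.42. Marcks, a substrate of protein kinase C, was lowest in that tumour, 7.98, 8.75, 4.24, 10.33 and 10.67.

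Sex-linked genes divided the tumours. Xist, the RNA that silences an X chromosome in females, gave 10.64, 4.19, 4.19, 9.86 and 11.01, high in 3 lymphomas and near the array median in lymphoma_7890 and lymphoma_9250. Its 2 other probe sets gave the same division. Eif2s3y, a Y-linked translation factor, gave 5.84, 4.35, 4.95, 10.38 and 4.29, high in lymphoma_1032 only, where Xist was also high. The other probe set of Eif2s3y did not show this, with 2.51, 2.59, 3.02, 2.54 and 3.26, below the array median throughout. Uty, a Y-linked demethylase relative, gave 2.35, 4.14, 6.17, 5.46 and 2.02, highest in lymphoma_9250 and lymphoma_1032. Kdm5d, a Y-linked demethylase, gave 5.60, 5.21, 5.96, 5.97 and 2.03, lowest in lymphoma_4936. Its other probe sets, below the array median throughout, had SDs of 0.10 and 0.33. The remaining members were flat: Sry gave 5.77, 5.73, 5.42, 5.88 and 5.51, Tsix, the antisense of Xist, 2.74, 2.77, 3.01, 2.67 and 2.95, Usp9y 2.88, 3.25, 3.08, 3.08 and 3.32 and Zfy2 3.43, 3.81, 3.92, 3.52 and 3.93. The labels give no sex to set these values against.

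**Figure D5:**
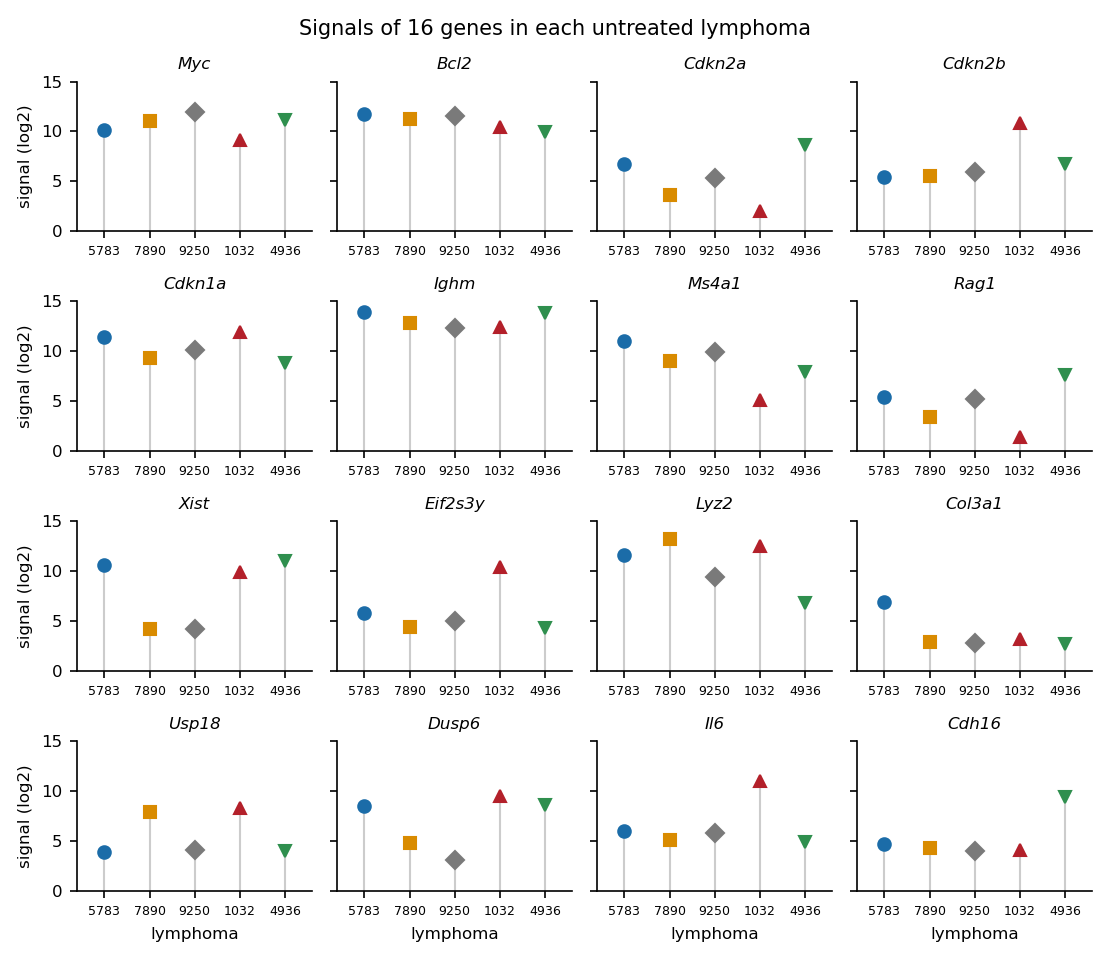
Signals (log2 RMA, axis from 0) of 16 genes in each untreated lymphoma, 1 array each. Cdkn2a is lowest and Cdkn2b highest in lymphoma_1032, Xist is high in lymphoma_5783, lymphoma_1032 and lymphoma_4936, and Cdh16 is high in lymphoma_4936 only.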

How the data were processed

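Total RNA of 5 untreated lymphoma cultures was labelled by a one-cycle protocol and hybridised to Affymetrix mouse expression arrays, per the labels' protocols. The deposited table holds log2 signals by RMA; the submitters' processing notes name RMA and Partek as the authors' tools, with no version or setting. The values were read as log2 from their range and were not normalized again. Array number, not depth, limits precision.

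Of 45101 probe sets, 34945 carried exactly 1 gene symbol in the platform annotation, 64 were controls, 932 had several symbols and 9160 were unnamed; the last 3 classes were left out. Gene IDs of 34741 single-symbol probe sets were in the RefSeq table. Means, SDs and ranges were computed with Python 3.11.15, pandas 2.3.3 and numpy 2.4.6. No hypothesis was tested. A lymphoma counted as apart where its gap to the nearest other exceeded the 95% critical share of the range in Dixon's rule, and this step was tested on simulated data.

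Named genes were the 30 highest means, the 25 smallest SDs at a mean of at least 8, the 40 largest SDs, within each list the 4 largest SDs and 3 highest means, per lymphoma the 8 genes farthest above and the 5 farthest below the nearest other lymphoma, the sex-linked, CDK inhibitor and Myc lists, and a set of fixed genes; others were chosen after their values were seen, among them the set of ERK outputs and the epithelial markers. Members and lists were chosen with earlier results of these data known.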

Additional observations from a re-analysis of the deposited data

Results flagged for a closer look

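Over the 5 arrays, the gap between the extreme lymphoma and its nearest neighbour, as a share of the gene's whole range, passed the 95% critical value of Dixon's rule for 1257 of 18193 genes, or 6.91%. Chance alone passes about 1 in 20 groups. Among the 221 genes named above and below, many of them chosen for their values, 53 passed, and each is given here with that share.

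Lymphoma_4936 was high for Tmed6 (0.977), Fzd6 (0.951), Cltrn (0.930), Camk2n1 (0.919), Tmem252 (0.911), Hgfac (0.909), Sox9 (0.898), Cdh16 (0.883), Cldn2 (0.872), Perp (0.867), Mxi1 (0.845), Tinag (0.834), Ehf (0.832), Smad1 (0.830) and Igkv14-111 (0.797). It was low for Lifr (0.869), Tubb5 (0.817), Rrm2 (0.812), Kdm5d (0.808), Lrrk2 (0.792), Bub1 (0.783), Plxnc1 (0.734) and Top2a (0.718).

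Lymphoma_1032 was high for the colony-stimulating factors Csf2 (0.990) and Csf3 (0.949), for Sema4c (0.929), S100a8 (0.919), Olfm1 (0.819), Il6 (0.817), Slc2a3 (0.816), Bcl2l1 (0.780), Cdkn2b (0.768), Mmp13 (0.764), Stfa3 (0.764), Lcn2 (0.764), Slc2a1 (0.756) and Eif2s3y (0.746). It was low for H2-Aa (0.884), Cd24a (0.827) and Mnt (0.816).

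Lymphoma_5783 was high for F13a1 (0.942), Igkv9-120 (0.942), Pf4 (0.894), Col3a1 (0.862), Mrc1 (0.795) and, with differences under 0.5, Rpl37a (0.713) and S100a9 (0.711). It was low for Tent5c (0.830). Lymphoma_7890 was high for Marco (0.813), Cers6 (0.781) and Cited1 (0.715) and low for Apool (0.771). Lymphoma_9250 was high for Cyp39a1 (0.791).

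Of 32 list means, 3 passed. These were G2 and mitosis, low in lymphoma_4936 (0.850), cytokines and chemokines, high in lymphoma_1032 (0.838), and neutrophil markers, also high in lymphoma_1032 (0.716). The median of the neutrophil list did not follow its mean, with 4.17, 4.11, 4.08, 4.0 and 4.10, lowest in lymphoma_1032.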

How the results depend on the processing

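Of 93 counts recomputed under other settings of all 5 arrays, 80 stayed within 1.5 times the reported one. With every probe set of a gene averaged, 18 of the 30 highest-signal and 11 of the 25 most even genes were shared with those reported. Without probe sets that may bind several transcripts these were 4 and 10. Centring each array on the same median left 16 of the 25 most even genes. With genes restricted to means above the 70th percentile, which tests fewer genes, an SD of at least 1 was found for 482, a range of at least 2 for 787 and 1 lymphoma apart for 63. The widest and closest pairs then differed at 423 and 116 genes, and 17 interferon-stimulated and 11 macrophage genes had a range of at least 2. Ranked by median absolute deviation, 14 of the 40 least even genes were shared. Where no cause is named, the cause was not tested.

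With 1 lymphoma left out, 58 of 70 counts stayed within 1.5 times. Genes with an SD of at least 1 numbered 713 to 1011, with a range of at least 2 885 to 1298, and with 1 lymphoma apart 93 to 154. The widest pair differed at 482 to 746 genes and the closest at 217 to 342. Of the selected genes, 29 to 30 of the highest, 14 to 20 of the most even and 21 to 34 of the least even were shared. A range of at least 2 was found for 9 to 12 B-cell identity genes, 9 to 12 p53 targets, 19 to 28 interferon-stimulated genes, 11 to 16 immediate early genes, 11 to 22 cytokines and 17 to 20 macrophage genes. Without the marker genes of other cell types, added after seeing the data, 1379 genes had a range of at least 2 and the other 4 counts also stayed within 1.5 times.

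The mean of 58 of 221 named genes moved by more than its SD when all probe sets were averaged. Without the probe sets that may bind several transcripts, that of 23 of 197 did. Centring moved 0 and quantile normalization 1. No paired analysis was possible because the report uses 1 group and no test.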

Other observations

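Genes of chromosome 3 were higher as a group in lymphoma_1032 and lymphoma_4936. Over 7071 genes above a signal of 6 on all 5 arrays, each gene was set against its own median over the lymphomas and each array was centred on 0. The 342 chromosome 3 genes then had mean deviations of -0.01, -0.18, -0.20, 0.27 and 0.31, in the order lymphoma_5783, lymphoma_7890, lymphoma_9250, lymphoma_1032 and lymphoma_4936. The medians in the last 2 were 0.22 and 0.26. The highest signal was in lymphoma_1032 for 44.2% of them, against 28.1% of all such genes, and in lymphoma_4936 for 39.5% against 22%.

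Other chromosomes set single tumours apart by smaller amounts. Chromosome 1 (405 genes) averaged 0.17 in lymphoma_5783 with a median of 0.06, and there 26.7% of its genes were highest against 12.9% of all. In lymphoma_4936, chromosome 5 (483 genes) averaged 0.16 with a median of 0.09, chromosome 19 (268 genes) 0.13 with a median of 0.07 and chromosome 14 (237 genes) -0.16 with a median of -0.12, and 48.5% of the chromosome 14 genes were lowest there against 30.4% of all. The SD over the 20 chromosomes ran from 0.05 in lymphoma_5783 to 0.10 in lymphoma_4936. DNA copy number was not measured, and the chromosomes were singled out after these values were seen.

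Several X-linked genes were low in lymphoma_7890, and they too were picked for their values. Gpr174, a lymphocyte receptor, gave 5.80, 2.42, 3.03, 7.87 and 3.85, and Apool, a mitochondrial protein, 7.99, 4.40, 7.88, 8.20 and 7.33; P2ry10 and Itm2a, given above, were also lowest there. Their X-linked companions P2ry10b, 7.20, 6.20, 6.84, 6.91 and 7.02, Sh3bgrl, 10.92, 10.76, 10.63, 11.51 and 10.55, and Hmgn5, 9.44, 8.54, 9.85, 9.42 and 9.03, differed less.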
